A study of Mus musculus with 6 samples.

Results

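Solute carriers are the membrane proteins of the Slc families, which move amino acids, metals, nucleosides, sugars, lipids and ions into cells and between the compartments of a cell. Their RNA was measured in macrophages sorted from femoral bone marrow as CD11b+F4/80+ cells. The genes were chosen by their symbol, Slc followed by a digit, and by a mean level over all 6 libraries of at least 1 read per 1000000 reads assigned to genes (RPM). Slc2a1, Slc2a3, Slc16a3, Slc40a1, Slc11a1 and Slc4a1 were left out by name. This gave 182 genes of 249 such symbols and of 17528 listed genes, while 61 symbols were below the level. All 182 passed the filter on low values used for testing. Slc16a14 (1.00 RPM), Slc5a3 (1.01 RPM) and Slc22a21 (1.13 RPM) lay just inside the level, and Slc1a3 (0.943 RPM), Slc52a3 (0.901 RPM) and Slc13a3 (0.795 RPM) lay just outside. Slc16a14, Slc39a14, Slc5a3 and Slc9a7 reached it only through day 18, with under 1 RPM over the libraries of day 0 and day 4.

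All mice were BALB/c animals of genotype RAG2-/-γc-/-, which have no mature T, B or NK cells and accept human grafts. The day 0 group had no graft, and the day 4 and day 18 groups were taken 4 and 18 days after Raji cells, grown from a human Burkitt lymphoma, had been given into a vein. Each group had 2 libraries, called A and B after the deposited columns. No ungrafted mice matched the later days, so graft, injection and elapsed time cannot be told apart. Whether A and B of a group stem from different mice is not stated, so p-values measure only how far these libraries scatter, which could be technical scatter. Sex and age are not given in the labels.

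A macrophage depends on its carriers in several compartments. At the surface, exchangers trade one amino acid for another and importers bring in metals, nucleosides and sugars. In the phagolysosome, where engulfed material is broken down, other carriers let amino acids, nucleosides, sugars and metals out into the cytosol, and in the mitochondrion the Slc25 family links cytosolic and mitochondrial metabolism. Zinc carriers form a pair of opposed families, with the Slc39 (ZIP) proteins moving zinc towards the cytosol and the Slc30 (ZnT) proteins moving it out of the cytosol.

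Libraries held 20073016 to 23214524 reads assigned to genes, so that 1 RPM stood for about 20.1 to 23.2 reads. The sorted cells carried macrophage and monocyte RNA. Csf1r, the receptor for macrophage colony-stimulating factor, averaged 159.5, 209 and 411 RPM at day 0, day 4 and day 18, and Adgre1, which encodes F4/80, averaged 34.6, 43.6 and 61.6 RPM. RNA of other cells was abundant and moved with the groups. The sum of 20 late neutrophil genes was 154563 to 155065 RPM at day 0, 133166 to 137487 RPM at day 4 and 114906 to 115881 RPM at day 18, and 15 of the 20 were called lower and 2 higher at day 18. Over the same days the sum of 12 classical monocyte genes was 2197 to 2232 RPM, 2444 to 2451 RPM and 3771 to 3784 RPM (10 higher, 1 lower at day 18). The sum of 19 resident macrophage genes was 679.8 to 697 RPM, 573 to 586 RPM and 867 to 889 RPM (11 higher, 5 lower of the 18 tested). Of all tested genes, 18.0% were called higher and 17.2% lower at day 18 against day 0. Non-classical monocyte genes summed to 1074 to 1085 RPM, 1249.8 to 1276 RPM and 1323 to 1352 RPM, early neutrophil genes to 5089 to 5147 RPM, 6492 to 6552 RPM and 5328 to 5329 RPM, eosinophil genes to 456 to 460.1 RPM, 365 to 393 RPM and 745 to 750.2 RPM, and erythroid genes to 364 to 383 RPM, 235 to 239.8 RPM and 437 to 446 RPM. Basophil and mast cell genes summed to 296 to 306 RPM, 300.2 to 311 RPM and 228 to 229 RPM, and stromal genes to at most 13.2 RPM. The basophil and mast cell sum was mostly Hdc, at 244 and 231 RPM at day 0. Of these 9 genes 4 were called higher and 1 lower at day 4 against day 0 (median log2 difference 1.22). The background was 5.49% and 6.65% of all tested genes. Against day 4, 7 were lower and 0 higher at day 18 (median -1.83), beside 12.1% and 13.9% of all tested genes. Of the B cell genes only Cd79b passed the filter, at a mean of 5.10 to 6.74 RPM. The part of these shifts in the carrier results was not tested, and fewer cells of a type and less RNA per cell cannot be told apart in such bulk samples.

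By day 18 the zinc, manganese and iron importer Slc39a14, the calcium exporter Slc8a1, the chloride cotransporters Slc12a4 and Slc12a7 and the mitochondrial ADP/ATP carrier Slc25a4 were more than 2-fold higher than at day 0. The cystine exchanger Slc7a11, the lysosomal carriers Slc15a3 and Slc2a6 and the amino acid carrier Slc43a2 were higher by close to 2-fold. The zinc carrier Slc39a11 was lower, and so, by less, were abundant carriers such as Slc25a24 and Slc35e1. At day 4 differences were small, the largest called being that of the lysosomal carrier Slc46a3.

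Of the 182 genes, 73 passed the test at day 18 against day 0, 48 higher and 25 lower. The test was limma on log2 of RPM plus 0.1, with a Benjamini-Hochberg adjusted p under 0.05 over 14304 genes, and genes that passed are said to be called. This was 40.1% of the carriers, close to the background of 35.3% of all tested genes (18.0% higher, 17.2% lower) and 39.5% of those at 1 RPM or more. The direction differed, with 26.4% of the carriers higher and 13.7% lower, beside 19.7% and 19.8% of genes at 1 RPM or more. The median log2 difference was 0.10 over the carriers and 0.02 over all tested genes. A called difference of at least 2-fold was reached by 14 of the 182 carriers (7.69%), where the background was 5.68% of all tested genes. Of the 178 carriers at 1 RPM or more over day 0 and day 4, 71 were called, 46 higher and 25 lower, and 12 (6.74%) reached 2-fold. Day 4 differed less from day 0. There 17 carriers were called, 10 higher and 7 lower, or 9.34% of the carriers. The background was 12.1% of all tested genes (5.49% higher, 6.65% lower) and 13.8% of those at 1 RPM or more (6.19% higher, 7.63% lower). No day 4 call of limma reached 2-fold, beside 0.636% of all tested genes. Between day 18 and day 4, 60 were called, 41 higher and 19 lower at day 18, or 33.0% of the carriers. The background was 26.0% of all tested genes (13.9% higher, 12.1% lower) and 29.1% of those at 1 RPM or more (15.2% higher, 13.9% lower). By 2-fold it was 12 carriers (6.59%), beside 4.12% of all tested genes. Among the 178 carriers at 1 RPM or more over day 0 and day 4, 58 were called, 39 higher and 19 lower, and 10 (5.62%) reached 2-fold. The libraries of day 18 and day 0 did not overlap for 138 carriers, where the background was 66.5% of all tested genes. Those of day 4 and day 0 did not overlap for 93 (background 50.9%), and those of day 18 and day 4 for 122 (background 58.8%).

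The split by direction moved with the scaling. On library totals alone, with no scaling factors, 70 carriers were called higher and 18 lower at day 18 against day 0, so that 79.5% of calls were higher, beside 65.8% with scaling. Over all genes the same change of setting gave 70.7% higher, beside 51.1%. Day 4 against day 0 gave 21 higher and 4 lower (84.0% beside 58.8%, and over all genes 73.2% beside 45.3%). Day 18 against day 4 gave 44 higher and 14 lower (75.9% beside 68.3%, and over all genes 62.6% beside 53.5%). The median log2 difference of all tested genes at day 18 against day 0 was 0.0153 with scaling and 0.0986 on library totals alone. Slc7a5, Slc7a7, Slc36a1, Slc25a37, Slc25a39, Slc25a45, Slc30a1, Slc30a5 and Slc44a1, given below as not called at day 18 against day 0, were called higher on library totals alone, at log2 differences of 0.16 to 0.34. The day 4 calls depended on the model. On the RPKM scale 1 carrier, Slc46a3, was called at day 4 against day 0, beside 0.664% of all tested genes. With 1 spread for genes of all levels limma called 0 carriers and 0 of all tested genes, with 28 at an unadjusted p under 0.05, against 40 as fitted here. Without day 0 library A or day 0 library B, 11 were called at day 4. Leaving out day 0 A gave 6 higher at day 4, and leaving out day 0 B or day 4 B gave 4 lower. Between day 18 and day 4, 11 were lower without day 4 A and 10 without day 18 B. At day 18 against day 0 the RPKM scale gave 52 calls (beside 23.6% of all tested genes) and the single spread 46 (beside 18.5%), and 48 of the 73 called carriers stayed called whichever library was left out. Below, a call is said to be lost where it no longer passed without the library named.

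**Figure D1:**
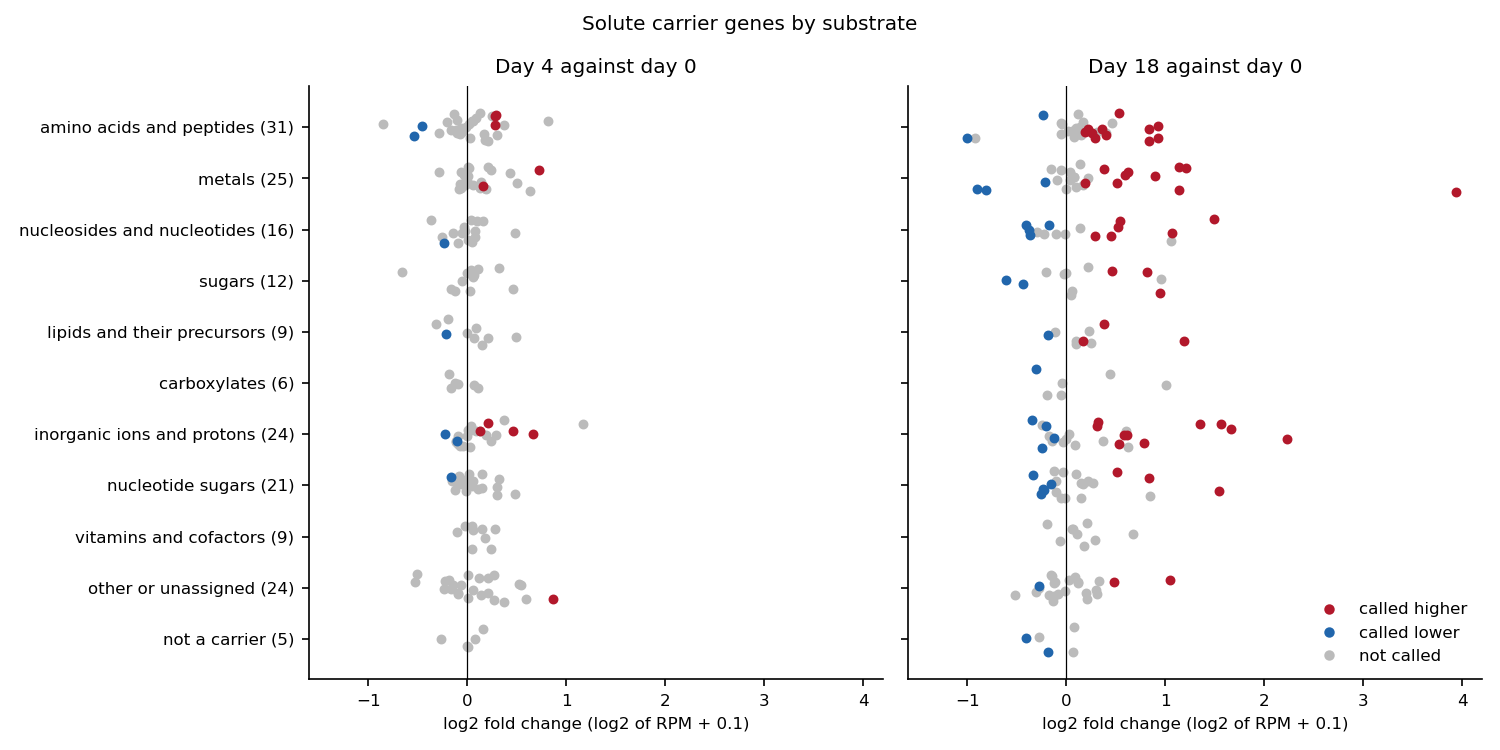
Log2 fold change (log2 of RPM plus 0.1) of each of the 182 genes, by substrate with the number of genes in brackets, for day 4 against day 0 (left) and day 18 against day 0 (right). The nucleotide sugar class holds the whole Slc35 family, orphans among them. Red points were called higher, blue lower and grey not called (limma, adjusted p under 0.05), and the point farthest to the right is Slc39a14 at 3.93 in the day 18 panel.

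The carriers that were higher at day 18 were scarcer than those that were lower. Their median level over all libraries was 16.3 RPM for the 48 called higher and 88.4 RPM for the 25 called lower, against 22.9 and 95.6 RPM for all tested genes at 1 RPM or more called in the same directions. The median size of the log2 difference was 0.60 for the carriers called higher and 0.28 for those called lower, beside 0.58 and 0.26 for genes at 1 RPM or more. The carriers thus lay near the background in both respects.

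**Figure D2:**
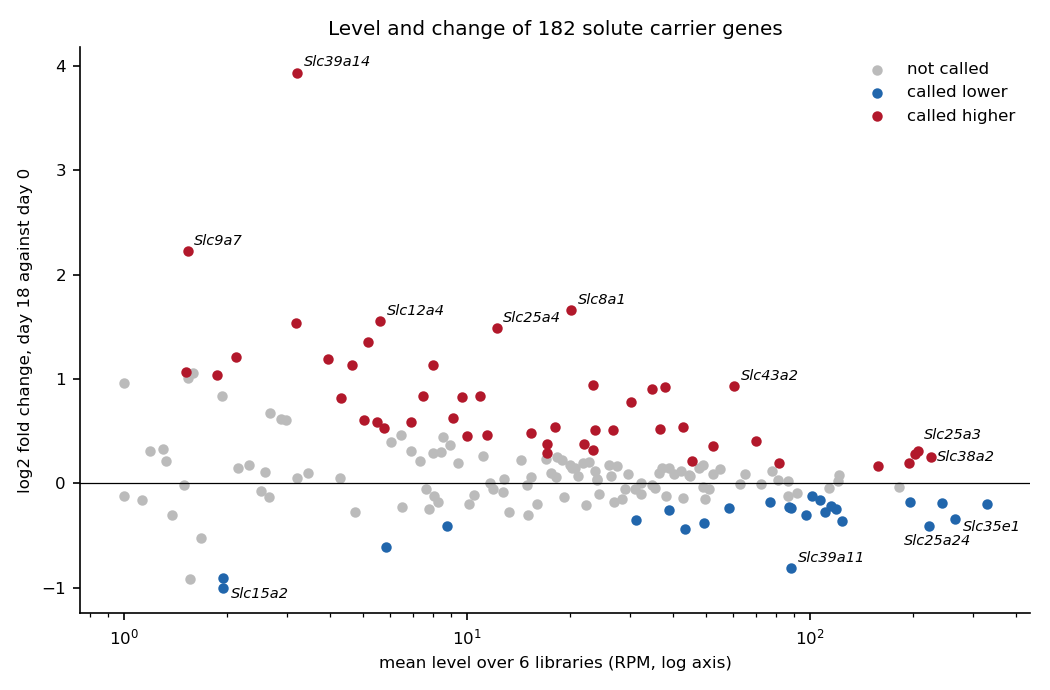
Log2 fold change at day 18 against day 0 of the 182 genes plotted by their mean level over 6 libraries (RPM, log axis), with calls coloured as named in the legend. Genes called lower lie mostly at the right, with a median level of 88.4 RPM, and genes called higher reach further to the left, with a median of 16.3 RPM.

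Amino acid and peptide carriers numbered 31. Day 18 against day 0 had 11 called higher and 2 lower (35.5% and 6.45%, beside 18.0% and 17.2% of all tested genes), with a median log2 difference of 0.17. Of the day 4 calls against day 0, 3 were higher and 2 lower (9.68% and 6.45%, beside 5.49% and 6.65% of all tested genes). Against day 4, 12 were higher at day 18, beside 13.9% of all tested genes.

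Slc7a11 and Slc3a2 encode the light and heavy chains of system xc-, which brings cystine in against glutamate and feeds glutathione synthesis. Slc7a11 (chr3:49892526-50443615, minus strand, mm10) had 9.13 and 9.76 RPM at day 0, 6.67 and 6.30 RPM at day 4, and 16.7 and 17.2 RPM at day 18. The order of the groups was thus day 4, day 0, day 18, with no overlap. Its log2 fold change was -0.53 (SE 0.140, limma adjusted p = 0.0107) at day 4 against day 0, 0.84 (SE 0.140, limma adjusted p = 2.30e-05) at day 18 against day 0 and 1.37 (SE 0.140, limma adjusted p = 1.23e-08) at day 18 against day 4. The lower level at day 4 was no longer called without day 0 library B (-0.49, adjusted p = 0.106) and without day 4 library B (-0.49, adjusted p = 0.0552). Part of its reads were fractional, and how the fractions arose is not known here. Slc3a2, which also serves as the heavy chain of the other exchangers below, had 65.4 and 61.2 RPM at day 0, 61.4 and 63.9 RPM at day 4, and 82.2 and 85.3 RPM at day 18. Its day 18 libraries lay above all others, with a log2 fold change of 0.40 (SE 0.0576, limma adjusted p = 2.32e-06) against day 0 and -0.01 (adjusted p = 0.92) at day 4 against day 0.

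The promoters of these partner chains are shown because Slc7a11 is a known target of Atf4, whose amino acid response element has the core TGATGCAA. Of the 182 genes, 140 matched RefSeq's promoter table (GRCm38.p6), with 191 promoters, and the 250 bases before each start were searched on both strands. The core was found in 0.791% of all 32851 promoters and in 3 of the 191, those of Slc50a1, Slc7a11 and Slc7a7. In Slc7a11 it occurred 2 times, on opposite strands, 66 and 47 bases before the start (capitals), and in Slc3a2 these letters were not in the window. The RefSeq start of Slc3a2 used here lies inside the gene span of the deposited table. Both sequences are given in the direction of the gene, from chr3:50443614-50443863 and chr19:8713898-8714147, minus strand.
Slc7a11: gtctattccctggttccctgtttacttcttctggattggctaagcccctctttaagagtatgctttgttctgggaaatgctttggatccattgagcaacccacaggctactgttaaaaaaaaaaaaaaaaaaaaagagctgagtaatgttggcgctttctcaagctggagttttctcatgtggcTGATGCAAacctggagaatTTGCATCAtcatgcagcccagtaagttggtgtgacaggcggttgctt
Slc3a2: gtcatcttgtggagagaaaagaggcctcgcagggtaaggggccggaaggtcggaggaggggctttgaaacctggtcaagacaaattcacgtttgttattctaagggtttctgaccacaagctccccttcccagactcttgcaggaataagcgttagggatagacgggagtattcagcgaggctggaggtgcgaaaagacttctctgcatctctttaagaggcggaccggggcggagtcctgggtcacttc

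Of 13 tested genes of the amino acid response, 8 were called higher and 1 lower at day 18 against day 0 (median log2 difference 0.36). The background was 18.0% and 17.2% of all tested genes. At day 4 against day 0, 2 were called higher, beside 5.49% of all tested genes. Atf4 itself had 211 and 209 RPM at day 0, 197 and 201 RPM at day 4, and 231 and 242 RPM at day 18. For Atf4 the log2 fold change was 0.17 (SE 0.0352, limma adjusted p = 0.000263) at day 18 against day 0. Ddit4, an inhibitor of mTOR signalling, had 2.53 and 2.59 RPM at day 0, 3.28 and 3.58 RPM at day 4, and 8.72 and 8.32 RPM at day 18. In log2 terms Ddit4 differed by 1.70 (SE 0.216, limma adjusted p = 3.68e-07). Asns, asparagine synthetase and a target of the same factor, moved the other way, with 26.4 and 25.2 RPM at day 0, 21.6 and 24 RPM at day 4, and 14.5 and 18.1 RPM at day 18. Asns had a log2 fold change of -0.67 (SE 0.109, limma adjusted p = 1.71e-05). The called members of the list thus did not all move in 1 direction.

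Among exchangers of large neutral amino acids that pair with Slc3a2, changes were small. Slc7a5, the leucine exchanger LAT1, had 21.1 and 21.4 RPM at day 0, 18.9 and 20.5 RPM at day 4, and 23.8 and 25 RPM at day 18. Slc7a5 was not called at day 18 against day 0 (log2 fold change 0.20, limma adjusted p = 0.123). Slc7a7, which exports arginine and lysine against neutral amino acids, had 37.8 and 39.3 RPM at day 0, 36.1 and 35.6 RPM at day 4, and 40.9 and 44.5 RPM at day 18. Slc7a7 was not called either (log2 fold change 0.15, limma adjusted p = 0.138), and its exons overlap those of Oxa1l. Against day 4 both were called higher at day 18 in limma, Slc7a5 at 0.31 (adjusted p = 0.0194) and Slc7a7 at 0.25 (adjusted p = 0.0134). The Slc7a5 call was lost without day 4 library A (0.25, adjusted p = 0.128), without day 18 library A (0.35, adjusted p = 0.0604) and without day 18 library B (0.27, adjusted p = 0.149). The Slc7a7 call was lost without day 4 library B (0.23, adjusted p = 0.0557) and without day 18 library B (0.19, adjusted p = 0.188). Slc7a8, the related exchanger LAT2, was lower at day 4 than at day 0 at -0.46 (adjusted p = 0.035), a call lost with library totals alone (-0.41, adjusted p = 0.0664), without day 0 library A (-0.37, adjusted p = 0.27), without day 0 library B (-0.55, adjusted p = 0.078) and without day 4 library B (-0.34, adjusted p = 0.238). Slc7a2, an arginine importer, was below the level at a mean of 0.484 RPM and was not followed.

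Carriers that let neutral and aromatic amino acids pass without exchange were among the clearest of the class. Slc43a2 (LAT4, chr11:75531694-75577576, plus strand) had 47.5 and 40.5 RPM at day 0, 54.6 and 52.4 RPM at day 4, and 84.7 and 82.6 RPM at day 18. Its day 18 libraries were 1.90 times the day 0 mean, with a log2 fold change of 0.93 (SE 0.0683, limma adjusted p = 1.35e-11). The smaller difference at day 4, 0.29 (adjusted p = 0.00522), was lost without day 0 library B (0.17, adjusted p = 0.194). Reads were partly fractional and its exons overlap those of Gm45606. Slc16a10 (TAT1, aromatic amino acids) had 35.7 and 34.2 RPM at day 0, 45.1 and 39.9 RPM at day 4, and 52.8 and 48.6 RPM at day 18, and its log2 fold change at day 18 against day 0 was 0.54 (SE 0.0763, limma adjusted p = 2.31e-06). Each later group lay above the earlier one for both genes.

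The sodium-coupled glutamine carriers of the Slc38 family were called higher for 3 of 6 members at day 18 against day 0 and lower for none. The background was 18.0% of all tested genes higher and 17.2% lower. Slc38a2 (SNAT2), at 25.5 RPM per kilobase of exon the most abundant amino acid carrier measured, had 215 and 215 RPM at day 0, 202 and 209 RPM at day 4, and 249 and 264 RPM at day 18. For Slc38a2 the log2 fold change was 0.25 (SE 0.0356, limma adjusted p = 1.78e-06). Slc38a1 had 46.8 and 45.4 RPM at day 0, 53.1 and 50.6 RPM at day 4, and 58.4 and 60.1 RPM at day 18. In log2 terms Slc38a1 differed by 0.36 (SE 0.0641, limma adjusted p = 5.32e-05). Both changed by less than 1.5-fold. Slc1a5 (ASCT2), a glutamine and serine exchanger, had 36.8 and 38.1 RPM at day 0, 42.3 and 44.1 RPM at day 4, and 40.4 and 39.5 RPM at day 18. Slc1a5 was not called, with 0.21 (adjusted p = 0.0639) at day 4 and 0.09 (adjusted p = 0.357) at day 18 against day 0. On library totals alone it was called higher at day 4, at 0.26 (adjusted p = 0.0178). Slc6a6, the taurine importer, had 189.7 and 188 RPM at day 0, 179.7 and 179 RPM at day 4, and 211 and 219.9 RPM at day 18. Slc6a6 had a log2 fold change of 0.19 (SE 0.0360, limma adjusted p = 0.000107) at day 18 against day 0.

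Lysosomal carriers split. Slc15a3, which exports histidine and small peptides including muramyl dipeptide from the lysosome (chr19:10839727-10859363, plus strand), had 29.1 and 30.2 RPM at day 0, 27.7 and 27.5 RPM at day 4, and 55.5 and 57.5 RPM at day 18. The day 0 and day 4 libraries lay together and the day 18 libraries at 1.90 times the day 0 mean, with a log2 fold change of 0.93 (SE 0.0759, limma adjusted p = 1.25e-10) against day 0 and 1.03 (SE 0.0759, limma adjusted p = 2.56e-11) against day 4. Its reads were partly fractional and its exons overlap those of Tmem132a. Slc15a4, of the same function and needed for signalling by endosomal Toll-like receptors, had 39.7 and 41.4 RPM at day 0, 47.4 and 50.8 RPM at day 4, and 46.8 and 47.2 RPM at day 18. Slc15a4 was higher at day 4 than at day 0 at 0.28 (adjusted p = 0.00769), a call lost without day 0 library A (0.25, adjusted p = 0.0906) and without day 4 library B (0.23, adjusted p = 0.0845). The day 18 difference of Slc15a4 was 0.21 (adjusted p = 0.0166), and that call was lost without day 0 library A (0.18, adjusted p = 0.125), without day 18 library A (0.22, adjusted p = 0.0726) and without day 18 library B (0.21, adjusted p = 0.092). Slc38a7, which lets glutamine and asparagine out of lysosomes, had 5.28 and 6.93 RPM at day 0, 5.09 and 5.73 RPM at day 4, and 10.9 and 10.9 RPM at day 18. For Slc38a7 the log2 fold change was 0.84 (SE 0.176, limma adjusted p = 0.000405) at day 18 against day 0. Slc38a9, the arginine sensor of the lysosome, had 28.5 and 23.8 RPM at day 0, 27.2 and 27.2 RPM at day 4, and 31.1 and 27.3 RPM at day 18. Slc36a1, a proton-coupled exporter of small amino acids, had 76.8 and 69.9 RPM at day 0, 82.1 and 78.1 RPM at day 4, and 81.9 and 77.3 RPM at day 18. Neither was called in any comparison, with 0.16 (adjusted p = 0.209) and 0.12 (adjusted p = 0.115) at day 18 against day 0. On library totals alone Slc36a1 was called higher at day 4, at 0.18 (adjusted p = 0.0415), and at day 18, at 0.20 (adjusted p = 0.00747). Of the 25 genes of lysosomal amino acid sensing, 3 were higher and 4 lower at day 18 against day 0 (beside 18.0% and 17.2% of all tested genes).

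Lower at day 18 in this class were Slc25a12 and Slc15a2, both named after their values were seen. Slc25a12, the mitochondrial aspartate and glutamate carrier, had 63.3 and 63.5 RPM at day 0, 59.3 and 56.2 RPM at day 4, and 55.2 and 52.4 RPM at day 18. In log2 terms Slc25a12 differed by -0.24 (SE 0.0615, limma adjusted p = 0.00309). The Slc25a12 call was lost with library totals alone (-0.15, adjusted p = 0.0593) and without day 18 library B (-0.20, adjusted p = 0.0616). Slc15a2, a surface importer of peptides, was scarce, with 2.13 and 3.74 RPM at day 0, 1.27 and 1.81 RPM at day 4, and 1.31 and 1.42 RPM at day 18. Slc15a2 had a log2 fold change of -1.001 (SE 0.343, limma adjusted p = 0.0239). That call was lost without day 0 library B (-0.61, adjusted p = 0.33), without day 18 library A (-0.94, adjusted p = 0.12) and without day 18 library B (-1.05, adjusted p = 0.0785).

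**Figure D3:**
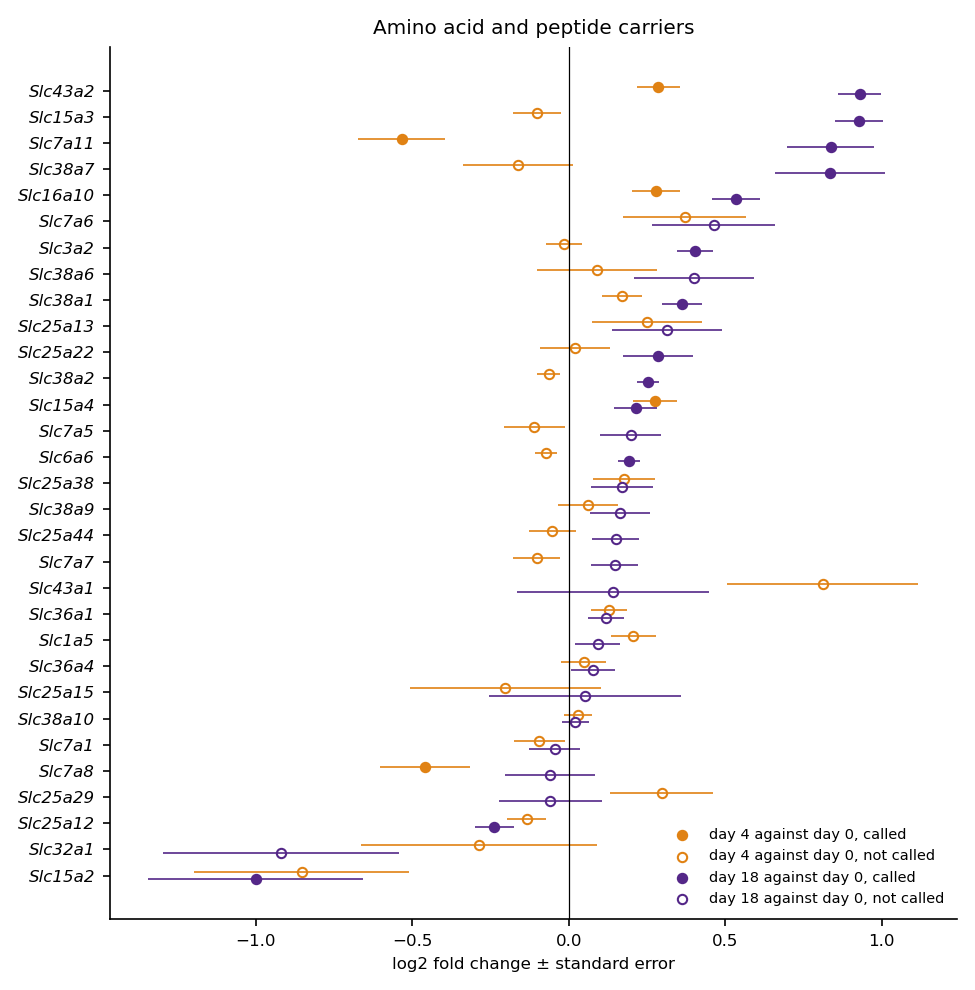
Log2 fold change with its standard error (bars) of the 31 amino acid and peptide carriers at day 4 (orange) and day 18 (purple) against day 0, ordered by the day 18 value. Filled points were called (limma, adjusted p under 0.05), and 4 genes at the top, Slc43a2, Slc15a3, Slc7a11 and Slc38a7, reach 0.84 to 0.93 at day 18.

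Metal carriers numbered 25, of which 10 were called higher and 3 lower at day 18 against day 0 (40.0% higher, beside 18.0% of all tested genes), with a median log2 difference of 0.14. Of the day 4 calls against day 0, 2 were higher, beside 5.49% of all tested genes. The Slc39 zinc importers gave 8 of the 13 day 18 calls, with 6 of 11 higher and 2 lower, beside 18.0% and 17.2% of all tested genes. Without Slc39a14, which reached 1 RPM only through day 18, 5 of 10 were higher and 2 lower, and of all metal carriers 9 of 24 higher and 3 lower. None of 5 Slc30 zinc exporters was called by limma at day 18 against day 0, with 1 at an unadjusted p under 0.05, but on library totals alone Slc30a1 and Slc30a5 were called higher there. Slc30a5, named after its values were seen, was also called higher at day 18 against day 4, at 0.20 (adjusted p = 0.0369), a call lost without day 0 library B (0.20, adjusted p = 0.0512), without day 4 library A (0.12, adjusted p = 0.302), without day 18 library A (0.25, adjusted p = 0.0669) and without day 18 library B (0.16, adjusted p = 0.271). The difference between the families was not tested.

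Slc39a14 (ZIP14, chr14:70303469-70351426, minus strand), which takes up zinc, manganese and iron not bound to transferrin, showed the largest difference of any carrier measured here at day 18 against day 0. Its reads numbered 8 and 13 for day 0, 9 and 15 for day 4, then 194 and 180 for day 18. Scaled, this was 0.355 and 0.601 RPM at day 0, 0.409 and 0.735 RPM at day 4, and 9.40 and 7.76 RPM at day 18. The mean was 17.9 times that of day 0, with a log2 fold change of 3.93 (SE 0.385, limma adjusted p = 3.69e-09). At day 4 against day 0 it was 0.21 (SE 0.385, limma adjusted p = 0.809) and the libraries overlapped. As it reached 1 RPM only through day 18, its place among the carriers followed from that rise.

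Other metal importers rose less. Slc39a1 (ZIP1, chr3:90248172-90253613, plus strand), a zinc importer of the surface, had 26.8 and 25.5 RPM at day 0, 31.4 and 26.6 RPM at day 4, and 47.5 and 50.3 RPM at day 18. For Slc39a1 the log2 fold change was 0.90 (SE 0.0861, limma adjusted p = 2.46e-09) at day 18 against day 0, with partly fractional reads. Slc39a4 (ZIP4), best known from intestinal zinc uptake, had 1.15 and 1.48 RPM at day 0, 2.14 and 1.67 RPM at day 4, and 3.003 and 3.32 RPM at day 18. In log2 terms Slc39a4 differed by 1.21 (SE 0.313, limma adjusted p = 0.00307). Slc11a2 (DMT1), which carries ferrous iron, had 2.35 and 3.51 RPM at day 0, 3.91 and 5.19 RPM at day 4, and 6.20 and 6.68 RPM at day 18. Slc11a2 had a log2 fold change of 1.13 (SE 0.232, limma adjusted p = 0.000296). In each of the 3 genes both day 18 libraries lay above both day 0 libraries. Slc31a1 (CTR1), the copper importer, had 20.03 and 20.9 RPM at day 0, 23.2 and 19.6 RPM at day 4, and 29.1 and 29.4 RPM at day 18. For Slc31a1 the log2 fold change was 0.51 (SE 0.0989, limma adjusted p = 0.000146). Slc41a1, a magnesium carrier, had 5.33 and 4.48 RPM at day 0, 7.73 and 8.57 RPM at day 4, and 11.1 and 10.6 RPM at day 18. In log2 terms Slc41a1 differed by 1.13 (SE 0.165, limma adjusted p = 3.31e-06) at day 18. It was called already at day 4, at 0.72 (adjusted p = 0.0035), which was lost without day 0 library B (0.60, adjusted p = 0.0656). Further Slc39 genes were called higher at day 18 and are named after their values were seen. Slc39a13 had 0.62 (adjusted p = 0.00206), a call lost without day 18 library B (0.53, adjusted p = 0.0549), and its exons overlap those of Psmc3. Slc39a10 had 0.59 (adjusted p = 0.0175), a call lost without day 0 library A (0.28, adjusted p = 0.351), without day 18 library A (0.55, adjusted p = 0.124) and without day 18 library B (0.62, adjusted p = 0.0754). Slc39a7, which releases zinc from the endoplasmic reticulum, had 0.19 (adjusted p = 0.00659), a call lost without day 0 library A (0.17, adjusted p = 0.0698) and without day 18 library A (0.18, adjusted p = 0.0693).

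Slc39a11 (ZIP11, chr11:113244853-113650080, minus strand), a family member of internal membranes, fell. It had 108 and 104 RPM at day 0, 99.6 and 99.3 RPM at day 4, and 59.7 and 60.6 RPM at day 18. The day 4 libraries lay just below day 0, and day 18 was 0.569 times the day 0 mean, with a log2 fold change of -0.81 (SE 0.0506, limma adjusted p = 4.59e-13). The difference against day 4 was -0.72 (SE 0.0506, limma adjusted p = 8.57e-12). Slc39a8 (ZIP8), a close relative of Slc39a14, was lower at -0.91 (adjusted p = 0.0388) but scarce, with 2.93 and 2.08 RPM at day 0, 1.59 and 2.55 RPM at day 4, and 1.07 and 1.51 RPM at day 18. That call was lost with library totals alone (-0.83, adjusted p = 0.0617), without day 0 library A (-0.67, adjusted p = 0.27), without day 18 library A (-0.67, adjusted p = 0.259) and without day 18 library B (-1.14, adjusted p = 0.05). Slc31a2, a copper carrier of endosomes, had 122 and 123 RPM at day 0, 114 and 121 RPM at day 4, and 107 and 103 RPM at day 18. Slc31a2 had a log2 fold change of -0.22 (SE 0.0461, limma adjusted p = 0.000377).

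**Figure D4:**
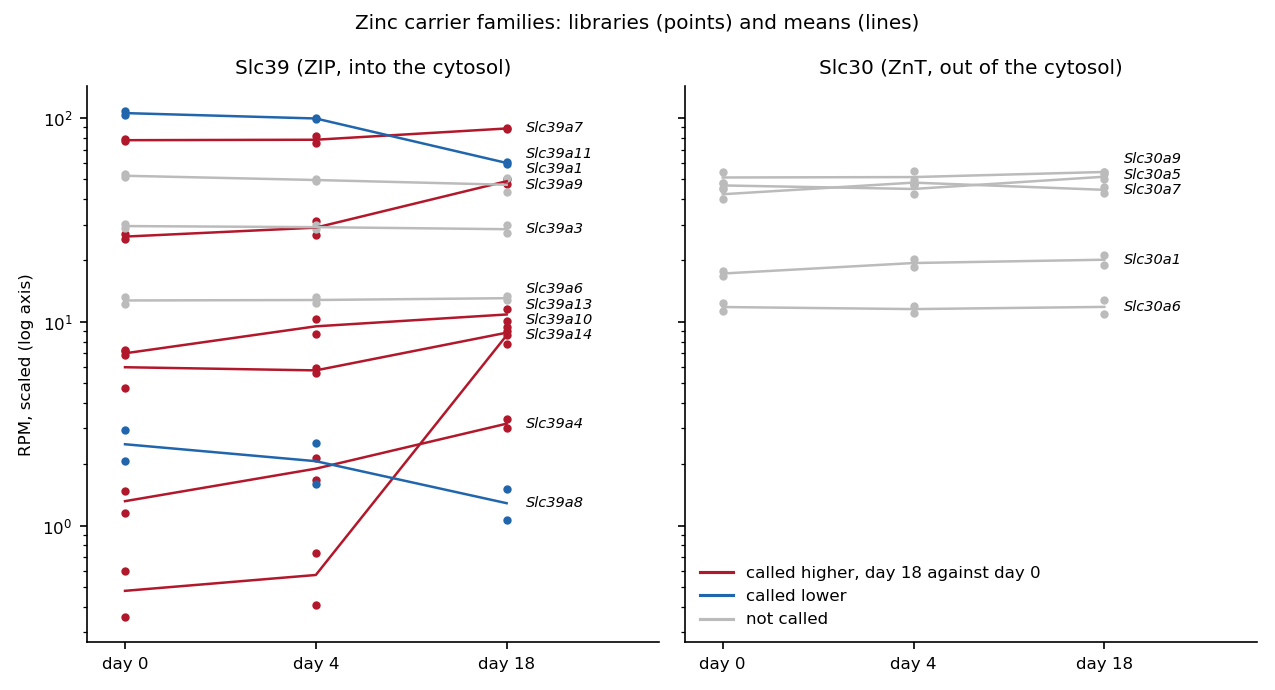
RPM (log axis) of the 11 Slc39 genes (left) and 5 Slc30 genes (right) at day 0, day 4 and day 18, with points for libraries and lines through the group means, coloured by the call at day 18 against day 0. Slc39a14 lies below 1 RPM at day 0 and day 4 and at 7.76 and 9.40 RPM at day 18, Slc39a11 lies at 59.7 and 60.6 RPM at day 18, and no Slc30 gene was called at day 18 against day 0.

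Slc30a1 (ZnT1), the zinc exporter of the surface and a textbook target of the metal-sensing factor Mtf1, had 17.7 and 16.8 RPM at day 0, 18.6 and 20.3 RPM at day 4, and 19.02 and 21.3 RPM at day 18. Its log2 fold change was 0.22 (SE 0.107, limma adjusted p = 0.112) at day 18 against day 0, and on library totals alone it was 0.31 and called (adjusted p = 0.0263). The reads were partly fractional and overlap those of 1700034H15Rik. Its promoter is shown because Mtf1 binds the metal response element, whose core is TGCACNC or TGCGCNC. On either strand 1 or both forms occurred in 21.4% of all RefSeq promoters (GRCm38.p6) and in 9 of 22 promoters of the metal carriers, or 8 of the 19 carriers with an entry. In Slc30a1 1 match (capitals, on the opposite strand) began 43 bases before the start, in chr1:191906531-191906780, plus strand.
Slc30a1: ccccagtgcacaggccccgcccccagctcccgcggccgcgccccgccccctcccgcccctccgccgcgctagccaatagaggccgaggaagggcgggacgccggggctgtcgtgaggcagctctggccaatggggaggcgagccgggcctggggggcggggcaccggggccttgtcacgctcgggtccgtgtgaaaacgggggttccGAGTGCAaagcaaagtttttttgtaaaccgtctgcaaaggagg

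Of 17 genes of metal storage and sensing, 10 were called higher and 4 lower at day 18 against day 0 (median log2 difference 0.39). The background was 18.0% and 17.2% of all tested genes. At day 4 against day 0, 1 was higher and 4 lower, beside 5.49% and 6.65% of all tested genes. Mt1, a metallothionein that binds zinc and copper, had 10.3 and 10.3 RPM at day 0, 15.4 and 17.8 RPM at day 4, and 20.1 and 22.5 RPM at day 18. Mt1 had log2 fold changes of 0.68 (SE 0.118, limma adjusted p = 0.000192) at day 4 and 1.03 (SE 0.118, limma adjusted p = 6.35e-08) at day 18 against day 0. Fth1, the ferritin heavy chain, had 496 and 487 RPM at day 0, 427 and 439 RPM at day 4, and 787 and 822 RPM at day 18. Fth1 was lower at day 4 (log2 fold change -0.18, limma adjusted p = 1.57e-05) and higher at day 18 (log2 fold change 0.71, limma adjusted p = 6.17e-18) than at day 0. Tfrc, the transferrin receptor, had 111 and 116 RPM at day 0, 96.02 and 94.3 RPM at day 4, and 67.8 and 66.8 RPM at day 18. For Tfrc the log2 fold change was -0.75 (SE 0.0497, limma adjusted p = 1.64e-12) at day 18 against day 0. Storage genes and the receptor thus changed in opposite directions at day 18. Tfrc is also an erythroid marker, and the resident macrophage and erythroid sums given above were at their highest at day 18. The mitochondrial iron importer Slc25a37 had 113 and 118 RPM at day 0, 132 and 125 RPM at day 4, and 124 and 120.0 RPM at day 18. It was called higher at day 4, at 0.16 (adjusted p = 0.0215), a call lost without day 0 library A (0.13, adjusted p = 0.21), without day 0 library B (0.19, adjusted p = 0.0534) and without day 4 library A (0.12, adjusted p = 0.157). Slc25a37 was not called at day 18 against day 0 (log2 fold change 0.08, limma adjusted p = 0.18). Slc48a1, which brings haem out of the phagolysosome, had 92.9 and 94.5 RPM at day 0, 95.6 and 93.98 RPM at day 4, and 89.7 and 85.8 RPM at day 18, with -0.09 (adjusted p = 0.147) at day 18 against day 0 and no call in any comparison.

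Nucleoside and nucleotide carriers numbered 16, with 6 called higher and 4 lower at day 18 against day 0 (beside 18.0% and 17.2% of all tested genes). At day 4 against day 0, 1 was called lower (6.25%, beside 6.65% of all tested genes). Equilibrative nucleoside carriers were higher. Slc29a3 (ENT3, chr10:60712072-60752795, minus strand), which exports nucleosides from lysosomes, had 32.6 and 31.1 RPM at day 0, 34.02 and 31.4 RPM at day 4, and 47.03 and 44.3 RPM at day 18, and both day 18 libraries lay above the rest. Its log2 fold change was 0.52 (SE 0.0781, limma adjusted p = 5.15e-06) at day 18 against day 0 and 0.04 (SE 0.0781, limma adjusted p = 0.823) at day 4. Slc29a1 (ENT1), the surface carrier, had 15.5 and 14.8 RPM at day 0, 16.2 and 17.6 RPM at day 4, and 21.5 and 22.7 RPM at day 18. In log2 terms Slc29a1 differed by 0.54 (SE 0.107, limma adjusted p = 0.000223) at day 18, and its exons overlap those of Gm17080. Slc43a3, which takes up purine nucleobases, went the other way with 134 and 137 RPM at day 0, 135 and 127 RPM at day 4, and 102 and 109 RPM at day 18. Slc43a3 had a log2 fold change of -0.36 (SE 0.0464, limma adjusted p = 3.81e-07). Slc17a9, which loads ATP into vesicles, had 57.9 and 52.98 RPM at day 0, 51.9 and 48.4 RPM at day 4, and 42.5 and 42.5 RPM at day 18. For Slc17a9 the log2 fold change was -0.38 (SE 0.0684, limma adjusted p = 6.19e-05). Slc28a2, a sodium-coupled purine nucleoside importer, was lower at -0.18 (adjusted p = 0.0152), a call lost with library totals alone (-0.09, adjusted p = 0.23), without day 0 library B (-0.16, adjusted p = 0.116) and without day 18 library B (-0.10, adjusted p = 0.279).

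Of 15 genes of nucleoside salvage, 3 were higher and 7 lower at day 18 against day 0 (median -0.13). The background was 18.0% and 17.2% of all tested genes. Upp1, uridine phosphorylase, had 0.577 and 0.647 RPM at day 0, 0.364 and 1.47 RPM at day 4, and 6.30 and 5.86 RPM at day 18. In log2 terms Upp1 differed by 3.12 (SE 0.436, limma adjusted p = 3.80e-06) at day 18. Dck, deoxycytidine kinase, had 140.5 and 133 RPM at day 0, 121 and 123 RPM at day 4, and 111 and 114 RPM at day 18. Dck had a log2 fold change of -0.28 (SE 0.0441, limma adjusted p = 1.11e-05).

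The mitochondrial nucleotide carriers differed among themselves. Slc25a4 (ADP/ATP carrier 1, chr8:46206797-46211285, minus strand) had 7.28 and 7.72 RPM at day 0, 8.60 and 7.35 RPM at day 4, and 21.3 and 21.2 RPM at day 18. Day 18 was 2.83 times the day 0 mean, with log2 fold changes of 1.49 (SE 0.138, limma adjusted p = 1.35e-09) against day 0 and 1.41 (SE 0.138, limma adjusted p = 6.20e-09) against day 4. Its relative Slc25a5 (ADP/ATP carrier 2), far more abundant at 124 RPM per kilobase of exon against 5.20 for Slc25a4, had 187 and 185 RPM at day 0, 199.8 and 194 RPM at day 4, and 231 and 223 RPM at day 18. For Slc25a5 the log2 fold change was 0.28 (SE 0.0359, limma adjusted p = 3.22e-07), with partly fractional reads. Slc25a24 (chr3:109123149-109168458, plus strand), which exchanges ATP-magnesium for phosphate in response to calcium, had 255 and 259 RPM at day 0, 227 and 209 RPM at day 4, and 194 and 192 RPM at day 18. The groups descended without overlap, with log2 fold changes of -0.24 (SE 0.0374, limma adjusted p = 4.92e-05) at day 4 and -0.41 (SE 0.0374, limma adjusted p = 8.88e-10) at day 18 against day 0. Over the whole Slc25 family, 8 of 38 were higher and 2 lower at day 18 against day 0, a median of 0.08, and without the family 40 of the other 144 genes were higher and 23 lower.

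Sugar carriers numbered 12, with 3 called higher and 2 lower at day 18 against day 0 (beside 18.0% and 17.2% of all tested genes). Slc2a6 (GLUT6, chr2:27021363-27027999, minus strand), a hexose carrier of lysosomal membranes, had 17.8 and 18.8 RPM at day 0, 17.3 and 15.3 RPM at day 4, and 34.7 and 35.9 RPM at day 18. The day 18 libraries were 1.93 times the day 0 mean and 2.17 times the day 4 mean, with log2 fold changes of 0.94 (SE 0.0991, limma adjusted p = 1.34e-08) and 1.11 (SE 0.0991, limma adjusted p = 1.05e-09). Slc2a8 (GLUT8), also of internal membranes, had 3.15 and 3.24 RPM at day 0, 3.91 and 4.11 RPM at day 4, and 5.81 and 5.60 RPM at day 18. In log2 terms Slc2a8 differed by 0.82 (SE 0.216, limma adjusted p = 0.0037) at day 18 against day 0. Slc2a9, a urate carrier, had 22.96 and 23.02 RPM at day 0, 24.2 and 24.05 RPM at day 4, and 20.3 and 19.6 RPM at day 18. Slc2a9 was not called against day 0 (log2 fold change -0.21, limma adjusted p = 0.0975). Slc37a1, of the sugar phosphate family, was lower, with 47.3 and 48.6 RPM at day 0, 44.2 and 48.4 RPM at day 4, and 36.7 and 34.2 RPM at day 18. Slc37a1 had partly fractional reads and a log2 fold change of -0.44 (SE 0.0729, limma adjusted p = 2.25e-05). Its relative Slc37a2, known from macrophages, was scattered, with 5.51 and 3.98 RPM at day 0, 4.46 and 1.91 RPM at day 4, and 4.21 and 5.60 RPM at day 18, and was not called at day 18 against day 0 (log2 fold change 0.05, limma adjusted p = 0.926). Without day 4 library A it was called lower at day 4 against day 0 (-1.25, adjusted p = 0.00664) and higher at day 18 against day 4 (adjusted p = 0.00198). Slc5a11, an inositol carrier, was lower at -0.61 (adjusted p = 0.0117), a call lost without day 0 library A (-0.59, adjusted p = 0.0651), without day 0 library B (-0.63, adjusted p = 0.0502) and without day 18 library A (-0.52, adjusted p = 0.103). Slc50a1, whose promoter also holds TGATGCAA, had 25.2 and 22.3 RPM at day 0, 24.9 and 22.6 RPM at day 4, and 25.3 and 23.6 RPM at day 18. Slc50a1 was not called at day 18 against day 0 (log2 fold change 0.04, limma adjusted p = 0.768).

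Carriers of lipids and their precursors numbered 9, with 3 called higher and 1 lower at day 18 against day 0 (33.3% and 11.1%, beside 18.0% and 17.2% of all tested genes). The fatty acid carriers Slc27a1 and Slc27a4, which also activate the acid with coenzyme A, moved apart. Slc27a1 (chr8:71568882-71587303, plus strand) had 2.89 and 2.45 RPM at day 0, 2.82 and 3.09 RPM at day 4, and 6.30 and 6.08 RPM at day 18, or 2.32 times the day 0 mean at day 18, with a log2 fold change of 1.19 (SE 0.233, limma adjusted p = 0.000183). Slc27a4, the more abundant at 44.6 RPM per kilobase of exon against 0.675 for Slc27a1, had 213 and 217 RPM at day 0, 188 and 183 RPM at day 4, and 186 and 194 RPM at day 18. It was lower at both days, with log2 fold changes of -0.21 (SE 0.0365, limma adjusted p = 0.000147) at day 4 and -0.18 (SE 0.0365, limma adjusted p = 0.000238) at day 18 against day 0. Choline carriers changed little. Slc44a2 had 151 and 148 RPM at day 0, 155 and 157 RPM at day 4, and 174 and 162 RPM at day 18. At day 18 against day 0 Slc44a2 was called at 0.17 (adjusted p = 0.00167), a call lost without day 18 library A (0.12, adjusted p = 0.0748). Slc44a1 had 16.9 and 20.02 RPM at day 0, 16.5 and 13.1 RPM at day 4, and 23.01 and 20.9 RPM at day 18. Slc44a1 was called at day 18 against day 4, at 0.57 (SE 0.121, limma adjusted p = 0.000619). Against day 0 it was called only on library totals alone at day 18 (0.34, adjusted p = 0.032) and without day 4 library A at day 4 (-0.48, adjusted p = 0.0212). Of 13 genes of fatty acid uptake and activation, 4 were higher and 4 lower at day 18 against day 0 (beside 18.0% and 17.2% of all tested genes). Among them Fabp5, a fatty acid binding protein, had 1.89 and 1.66 RPM at day 0, 1.27 and 0.979 RPM at day 4, and 7.80 and 7.71 RPM at day 18. Fabp5 had a log2 fold change of 2.07 (SE 0.280, limma adjusted p = 1.01e-06). Acsl1, which activates long-chain fatty acids, had 379 and 384 RPM at day 0, 328 and 320.2 RPM at day 4, and 337 and 325 RPM at day 18. For Acsl1 the log2 fold change was -0.21 (SE 0.0294, limma adjusted p = 2.32e-06).

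Carriers of inorganic ions and protons numbered 24. Day 18 against day 0 had 10 called higher and 4 lower (41.7% and 16.7%, beside 18.0% and 17.2% of all tested genes). Without Slc9a7, which reached 1 RPM only through day 18, 9 of 23 were higher and 4 lower. Day 4 against day 0 had 4 higher and 2 lower (16.7% and 8.33%, beside 5.49% and 6.65%). Slc8a1 (NCX1, chr17:81373105-81738378, minus strand), which exports calcium in exchange for sodium, had 9.81 and 11.2 RPM at day 0, 17.7 and 15.7 RPM at day 4, and 34 and 32.8 RPM at day 18. Each later group lay above the one before it, day 18 at 3.18 times the day 0 mean, with log2 fold changes of 0.67 (SE 0.111, limma adjusted p = 0.000114) at day 4 and 1.66 (SE 0.111, limma adjusted p = 1.78e-12) at day 18 against day 0. Its mitochondrial relative Slc8b1 (NCLX) was highest at day 4, with 171 and 178 RPM at day 0, 202 and 203 RPM at day 4, and 171 and 169.7 RPM at day 18. Slc8b1 had log2 fold changes of 0.21 (SE 0.0369, limma adjusted p = 0.000186) at day 4 against day 0 and -0.25 (SE 0.0369, limma adjusted p = 6.09e-06) at day 18 against day 4. Slc9a7, a sodium and proton exchanger of the Golgi, was scarce and named after its values were seen, with 0.622 and 0.416 RPM at day 0, 1.14 and 1.42 RPM at day 4, and 3.39 and 2.24 RPM at day 18. In log2 terms Slc9a7 differed by 2.23 (SE 0.393, limma adjusted p = 4.76e-05) at day 18 against day 0. Like Slc39a14, it reached 1 RPM only through day 18.

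Of the 6 genes of the Slc12 family of chloride cotransporters, 4 were called higher and 2 lower at day 18 against day 0. The background was 18.0% and 17.2% of all tested genes. Among the potassium and chloride cotransporters, which lower cell volume, Slc12a4 (KCC1) had 3.51 and 2.91 RPM at day 0, 4.23 and 3.67 RPM at day 4, and 8.77 and 10.5 RPM at day 18. Slc12a4 had a log2 fold change of 1.56 (SE 0.207, limma adjusted p = 7.54e-07). Slc12a7 (KCC4) had 3.95 and 2.96 RPM at day 0, 3.002 and 3.33 RPM at day 4, and 8.67 and 9.14 RPM at day 18. For Slc12a7 the log2 fold change was 1.35 (SE 0.215, limma adjusted p = 1.12e-05). In both genes each day 18 library lay above all libraries of day 0 and day 4. Slc12a5 (KCC2) was lower at -0.35 (adjusted p = 0.00313), a call lost without day 18 library A (-0.23, adjusted p = 0.128). Slc12a9, an orphan of the family, had 22.9 and 21.3 RPM at day 0, 29.5 and 31.4 RPM at day 4, and 36.8 and 39.2 RPM at day 18. Slc12a9 had log2 fold changes of 0.46 (SE 0.0859, limma adjusted p = 0.000401) at day 4 and 0.78 (SE 0.0859, limma adjusted p = 3.06e-08) at day 18 against day 0. Slc12a2 (NKCC1), named after its values were seen, was higher at 0.58 (adjusted p = 0.0237), a call lost without day 0 library A (0.52, adjusted p = 0.119), without day 0 library B (0.64, adjusted p = 0.058), without day 18 library A (0.57, adjusted p = 0.123) and without day 18 library B (0.60, adjusted p = 0.0997).

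Slc25a3, the phosphate carrier of the mitochondrion, had 188 and 185 RPM at day 0, 201 and 208 RPM at day 4, and 228 and 233 RPM at day 18. Slc25a3 had partly fractional reads and a log2 fold change of 0.31 (SE 0.0352, limma adjusted p = 6.28e-08) at day 18 against day 0. Slc20a1, a phosphate importer of the surface, had 70.4 and 61.3 RPM at day 0, 53.3 and 59.02 RPM at day 4, and 66.3 and 64.8 RPM at day 18. It was called lower at day 4 against day 0 at -0.23 (adjusted p = 0.0255), a call lost with library totals alone (-0.18, adjusted p = 0.0948), without day 0 library A (-0.13, adjusted p = 0.406), without day 4 library A (-0.15, adjusted p = 0.227) and without day 18 library A (-0.23, adjusted p = 0.0513), and its exons overlap those of 9830144P21Rik and Gm4430.

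**Figure D5:**
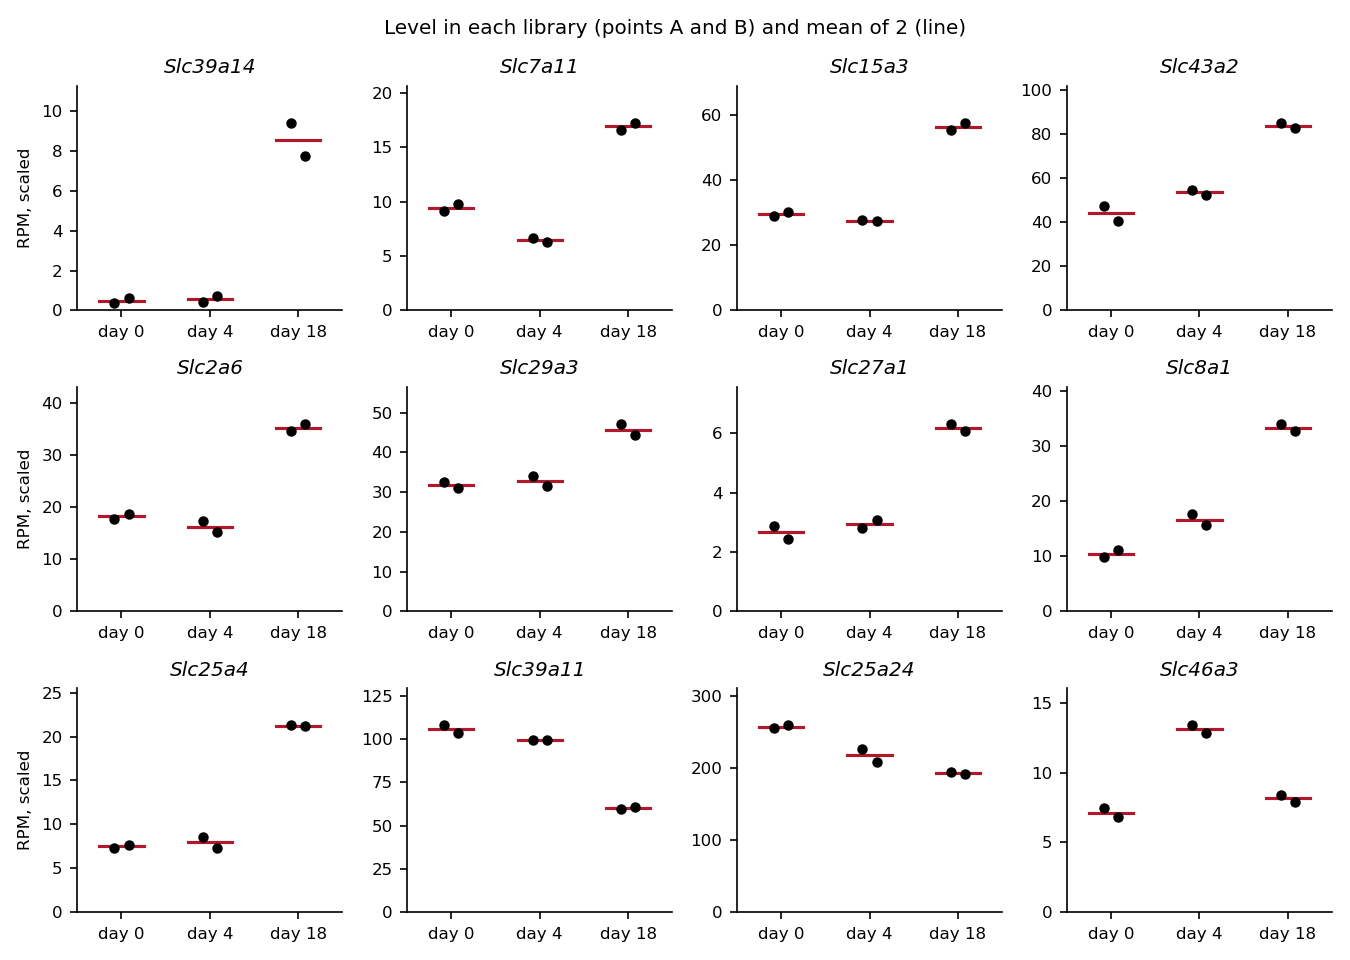
RPM in each library (points, A left and B right) with the group mean (line) at day 0, day 4 and day 18 for 12 carriers. Most panels show the change at day 18, from 1.43 times the day 0 mean in Slc29a3 to 17.9 times in Slc39a14, whereas Slc46a3 peaks at day 4 and Slc39a11 and Slc25a24 fall.

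Slc46a3, which lets small molecules including some antibody-drug conjugate products out of lysosomes (chr5:147878437-147894816, minus strand), had the largest difference called at day 4. It had 7.46 and 6.80 RPM at day 0, 13.4 and 12.8 RPM at day 4, and 8.43 and 7.89 RPM at day 18, so that both day 4 libraries lay above all others. Slc46a3 had a log2 fold change of 0.87 (SE 0.148, limma adjusted p = 0.000142) at day 4 against day 0 and -0.68 (SE 0.148, limma adjusted p = 0.00085) at day 18 against day 4. The day 18 libraries were not called against day 0 (log2 fold change 0.19, limma adjusted p = 0.343).

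The Slc35 family holds the nucleotide sugar carriers that supply the Golgi for glycosylation, and also orphan members. All its 21 genes were placed in 1 class by family. Of these 3 were called higher and 5 lower at day 18 against day 0 (14.3% and 23.8%, beside 18.0% and 17.2% of all tested genes). Slc35e1, an orphan member and the most abundant of the family at 59.4 RPM per kilobase of exon, had 299 and 294 RPM at day 0, 266 and 265 RPM at day 4, and 227 and 241 RPM at day 18. Slc35e1 had log2 fold changes of -0.16 (SE 0.0333, limma adjusted p = 0.00136) at day 4 and -0.34 (SE 0.0333, limma adjusted p = 3.48e-09) at day 18 against day 0. Slc35e4 and Slc35f5, also orphans, rose. Slc35e4 had 1.91 and 1.62 RPM at day 0, 2.37 and 2.64 RPM at day 4, and 5.38 and 5.22 RPM at day 18. For Slc35e4 the log2 fold change was 1.54 (SE 0.261, limma adjusted p = 2.90e-05). Slc35f5 had 8.08 and 7.30 RPM at day 0, 7.41 and 8.08 RPM at day 4, and 13.6 and 13.9 RPM at day 18. In log2 terms Slc35f5 differed by 0.83 (SE 0.147, limma adjusted p = 4.84e-05). Slc35c2, needed for fucosylation, was lower at -0.16 (adjusted p = 0.0185), a call lost with library totals alone (-0.08, adjusted p = 0.295), without day 0 library A (-0.16, adjusted p = 0.0819), without day 0 library B (-0.16, adjusted p = 0.0897) and without day 18 library B (-0.09, adjusted p = 0.315). Of 6 carboxylate carriers 1 was called at day 18 against day 0, beside 35.3% of all tested genes. It was Slc16a6, a ketone body carrier. Slc16a6 had 108 and 107 RPM at day 0, 102 and 94.8 RPM at day 4, and 86.2 and 87.4 RPM at day 18. Slc16a6 had partly fractional reads and a log2 fold change of -0.31 (SE 0.0494, limma adjusted p = 1.47e-05). Slc25a11, the oxoglutarate and malate carrier, had 118 and 118 RPM at day 0, 113 and 108 RPM at day 4, and 115 and 114 RPM at day 18 and no call. None of the 9 vitamin and cofactor carriers was called by limma in any comparison, with 3 at an unadjusted p under 0.05 at day 18 against day 0. Slc25a39, which brings glutathione into mitochondria, came closest, with 43.4 and 48.9 RPM at day 0, 47.1 and 49.1 RPM at day 4, and 53.2 and 50.95 RPM at day 18. The day 18 difference of Slc25a39 was 0.18 (adjusted p = 0.0529). It was called without day 0 library B (0.26), without day 4 library A (0.18) and without day 4 library B (0.17).

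Of 24 carriers with other or unassigned substrates, 2 were called higher and 1 lower at day 18 against day 0 (8.33% and 4.17%, beside 18.0% and 17.2% of all tested genes). Slc14a1, the urea carrier, had 1.15 and 1.25 RPM at day 0, 2.05 and 1.57 RPM at day 4, and 2.91 and 2.28 RPM at day 18. Slc14a1 was higher at 1.04 (adjusted p = 0.0141), a call lost without day 0 library A (0.99, adjusted p = 0.0645) and without day 18 library A (0.88, adjusted p = 0.149). Slc25a45, an orphan of the mitochondrial family, had 64.7 and 59.1 RPM at day 0, 65.8 and 68.2 RPM at day 4, and 64.6 and 66.9 RPM at day 18 and no call at day 18 against day 0 (log2 fold change 0.09, limma adjusted p = 0.283). Slc25a30, another orphan, had 12.9 and 14.8 RPM at day 0, 12.6 and 13.3 RPM at day 4, and 19.96 and 18.8 RPM at day 18. Slc25a30 had a log2 fold change of 0.48 (SE 0.118, limma adjusted p = 0.00178). Slc22a15 had 121 and 120.1 RPM at day 0, 108 and 118 RPM at day 4, and 99.7 and 98.9 RPM at day 18. Slc22a15 was lower, at -0.28 (SE 0.0480, limma adjusted p = 3.73e-05). The 5 genes that carry an Slc symbol without being carriers included Slc9a3r1, a scaffold protein linking membrane proteins to the actin skeleton, with 250.4 and 255 RPM at day 0, 249 and 260.0 RPM at day 4, and 221 and 223 RPM at day 18. For Slc9a3r1 the log2 fold change was -0.19 (SE 0.0337, limma adjusted p = 5.19e-05). Slc9a3r2, a related scaffold, was lower at -0.41 (adjusted p = 0.0455), a call lost with library totals alone (-0.32, adjusted p = 0.12), without day 0 library A (-0.31, adjusted p = 0.273), without day 0 library B (-0.52, adjusted p = 0.0518), without day 18 library A (-0.46, adjusted p = 0.101) and without day 18 library B (-0.36, adjusted p = 0.204). Without these 5 genes, 48 of 177 were higher and 23 lower at day 18 against day 0.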

How the data were processed

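Per the labels, RNA was taken from the sorted cells and read on an Illumina instrument. The submitters' processing notes name STAR 2.5.3a and mm10. What counted the reads, and on which annotation, is not known here. The deposited values are RPKM over the whole gene span, as the values themselves show: multiplied by the span in kilobases each library sums to 1000000. Steps between low values gave the reads per library, and whole reads (within 0.05 reads, plus 1e-05 per read) were found in every library for 146 of the 182 genes, the other 36 holding fractions.

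RPM was divided by trimmed-mean scaling factors (trim 0.3 of M and 0.05 of A values). Genes with 10 reads at the median library size (0.453 RPM) in 2 libraries and 15 reads in all were tested, 14304 in total. Log2 of RPM plus 0.1 was fitted with limma 3.58.1 (R 4.3.3, trend and robust) in 1 model of 6 libraries, with Benjamini-Hochberg adjustment over all tested genes and a threshold of 0.05. The method was also run on simulated libraries with a single fixed scatter and few changed genes, all at day 18. That run cannot give the error rate for data with as many differences as these. For scarce genes the added 0.1 makes log2 differences smaller than the true ones. Exonic length and overlaps came from GENCODE M21, which gave the same span for 179 of the 182 genes, and promoters from RefSeq. Python 3.11.15, pandas 2.3.3, numpy 2.4.6 and matplotlib 3.10.9 were used. RPM per kilobase of exon was used to compare genes.

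The genes, substrate classes and lists were chosen with earlier results of these data known. Substrates were assigned from general knowledge of the families, and all Slc35 genes were placed with nucleotide sugars by family. Named genes were, in each comparison, up to 10 called risers and 10 called fallers by size of difference (log2 level at least 1, groups not overlapping), in each class the 3 called genes with the smallest p at day 18 against day 0 and the most abundant gene, and a list of well-known carriers. Slc6a6, Slc9a7, Slc12a2, Slc15a2, Slc25a12, Slc30a5, Slc38a1, Slc39a7, Slc39a10, Slc39a13 and Slc48a1 lie outside this rule and were chosen after their values were seen. Alternatives changed the scaling, pseudocount, filter, spread model, scale, libraries and level threshold. The RPKM scale with a pseudocount of 0.01 and the level over day 0 and day 4 were added after the data were seen. Of the genes named, 1 is not reported here.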

Additional observations from a re-analysis of the deposited data

Results flagged for a closer look

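The changes at day 4 and day 18 were tested against each other by the day 18 against day 4 contrast in limma. By that test 60 of the 182 genes (33.0%) differed between the later days, 41 higher and 19 lower at day 18. The background was 26.0% of all tested genes (13.9% higher, 12.1% lower) and 29.1% of those at 1 RPM or more. Of the 178 genes at 1 RPM or more over day 0 and day 4, 58 differed, 39 higher and 19 lower. Slc7a11 was called in opposite directions, lower at day 4 and higher at day 18 than at day 0, with a log2 difference of 1.37 between day 18 and day 4 (SE 0.140, limma adjusted p = 1.23e-08), and its call at day 4 was lost without day 0 library B (-0.49, adjusted p = 0.106) and without day 4 library B (-0.49, adjusted p = 0.0552). Both contrasts share the day 0 libraries.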

How the results depend on the processing

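No called result changed direction under any setting, over 150 called results of 288 gene and comparison pairs, and 87 of the 150 kept their call in every setting other than the RPKM scale and the single spread. At day 4 against day 0 (17 called, 10 higher, 7 lower) library totals alone gave 21 higher and 4 lower. The RPKM scale gave 1 called (1 higher, 0 lower) with either pseudocount, and 1 spread for all levels gave 0, 0 and 0, with 28 at an unadjusted p under 0.05. Leaving out 1 library at a time gave 11 to 17 called, 6 to 10 higher and 4 to 9 lower. At day 18 against day 0 (73 called, 48 higher, 25 lower) the RPKM scale gave 16 lower with either pseudocount, and 1 spread gave 46 called and 9 lower. Leaving out 1 library gave 56 to 81 called, 34 to 54 higher and 17 to 27 lower. At day 18 against day 4 (60 called, 41 higher, 19 lower) the RPKM scale gave 34 called, 27 higher and 7 lower (33, 26 and 7 with a pseudocount of 0.01), and 1 spread gave 25 called, 21 higher and 4 lower. Leaving out 1 library gave 42 to 59 called, 28 to 40 higher and 10 to 19 lower. Where a group is left with 1 library, that library is assumed to vary like the other groups. The causes were not tested. Genes with whole reads only gave 12, 64 and 50 calls in the 3 comparisons. With 2 libraries a group, calls of any size rest largely on the spread shared across genes (median 22.7 prior against 3 residual degrees of freedom). Same-letter libraries did not deviate together over all tested genes (correlations -0.02, 0.00 and -0.04). This cannot settle whether the letters pair the samples, as the labels do not give the letters. With the letter as a replicate block 17, 73 and 59 carriers were called.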
